A study of Mus musculus with 3 samples.

Results

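The integrin and laminin genes were described in 3 bulk RNA-seq libraries of mouse proximal incisor mesenchyme. Members were all protein-coding genes of the deposited table with an integrin α symbol (Itga followed by a number or by one of the letters used for these chains), an integrin β symbol from Itgb1 to Itgb8, or a laminin chain symbol. The rule found 36 members among 15252 protein-coding genes: 17 integrin α chains, 8 integrin β chains, 5 laminin α chains, 3 laminin β chains and 3 laminin γ chains. All 3 libraries came from 1-month-old mice of the genotype Gli1-CreER;Arid1afl/fl;Arid1bfl/fl, called DKO. These mice carried a tamoxifen-inducible Cre driven by Gli1, so recombination was possible only in cells with Gli1 promoter activity and their descendants, and the tissue also holds cells without it. The tamoxifen dose was 1.5 mg for each 10 g the animal weighed, and tissue was taken 4 days later. DKO was the only group, so levels are described and no genotypes are compared. Separate animals are not stated for the 3 libraries, so each SD measures only the spread between libraries, which may be technical.

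Integrins are transmembrane receptors made of 1 α and 1 β chain, and the pairing sets the ligand. The chains α3, α6 and α7 bind laminins, α1, α2, α10 and α11 bind collagens, and α5, α8, αV and αIIb bind proteins with the peptide Arg-Gly-Asp (RGD), such as fibronectin. Laminins are secreted heterotrimers of an α, a β and a γ chain that polymerise into basement membranes, and in teeth such a membrane lies between dental epithelium and dental mesenchyme until the hard tissues form. In these bulk samples, fewer cells of a type and less RNA per cell cannot be told apart.

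The sequence before the transcription start is shown for 1 member of each chain family that had a RefSeq promoter entry free of the gene's own annotated exons, the one with the highest mean. Overlap with exons of other genes was not checked. Itgb1 stood for the integrin β chains (chr8:128685404-128685653, plus strand), Itga4 for the integrin α chains (chr2:79255176-79255425, plus strand) and Lama2 for the laminin α chains (chr10:27616943-27617192, minus strand), all in the RefSeq build GRCm38.p6. Each run of 250 bases is printed 5′ to 3′ and ends at the base before the RefSeq start, and capitals mark GGGCGG or its reverse complement. In GENCODE M21 the Lama2 gene begins farther upstream, at chr10:27619758, so the Lama2 window lies inside that annotated gene, outside its exons.
Itgb1: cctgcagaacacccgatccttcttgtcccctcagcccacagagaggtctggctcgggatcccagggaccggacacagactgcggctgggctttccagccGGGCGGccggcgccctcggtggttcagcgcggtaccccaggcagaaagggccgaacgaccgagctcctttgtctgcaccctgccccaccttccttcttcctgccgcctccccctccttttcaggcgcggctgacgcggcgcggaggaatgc
Itga4: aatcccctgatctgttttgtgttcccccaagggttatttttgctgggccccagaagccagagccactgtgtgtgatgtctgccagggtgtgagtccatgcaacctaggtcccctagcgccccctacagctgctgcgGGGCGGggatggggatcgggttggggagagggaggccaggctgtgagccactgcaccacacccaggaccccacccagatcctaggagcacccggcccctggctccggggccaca
Lama2: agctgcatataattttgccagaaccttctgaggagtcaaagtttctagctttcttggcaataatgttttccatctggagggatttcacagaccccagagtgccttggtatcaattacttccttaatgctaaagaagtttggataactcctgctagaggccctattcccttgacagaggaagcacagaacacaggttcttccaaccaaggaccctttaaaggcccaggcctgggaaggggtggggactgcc
The Itgb1 window held 21 CG dinucleotides, the Itga4 window 6 and the Lama2 window 0, against a median of 6 (quartiles 2 and 16) over 32851 RefSeq promoter windows of the same length. GGGCGG was found once in the Itgb1 and once in the Itga4 window and was not among the letters of the Lama2 window. Of 26 windows for 23 members, 9 held GGGCGG on either strand, while 32.7% of all 32851 windows did. TATAAA was in 0 and CACGTG in 0 of the 26 member windows, against 12.4% and 6.02% of all windows, and TGANTCA was in 1, that of Itgax, against 6.75%. No match to one of these motifs overlapped a match to another in the windows shown. A match is a description of the letters and not a binding site.

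Most of these genes were measured well above the lowest values of the table. A mean of at least 10 in the deposited normalized units was reached by 28 of 36 members (77.8%), against 66.5% of protein-coding genes. All 11 laminin genes passed, as did 12 of 17 integrin α and 5 of 8 integrin β chains. The 8 below that level, Itga10, Itga7, Itgax, Itga2b, Itgae, Itgb3, Itgb7 and Itgb6, had means from 0.430 for Itgae to 9.87 for Itga10. Itga10 lay at 10.3, 9.56 and 9.78 in replicates 1, 2 and 3, just below the limit, although 33.5% of its exon bases are shared with Gm42957 and could hold reads of either gene, and Itgb8, at 12.1, 15.7 and 12.6, just above it. Among the 28, the median value was 46.0, against 41.7 for the 10149 protein-coding genes at that level. Divided by exon length, the median was 6.99 per kilobase, against 8.57 for protein-coding genes, and 12 of the 28 lay above 8.57.

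**Figure D1:**
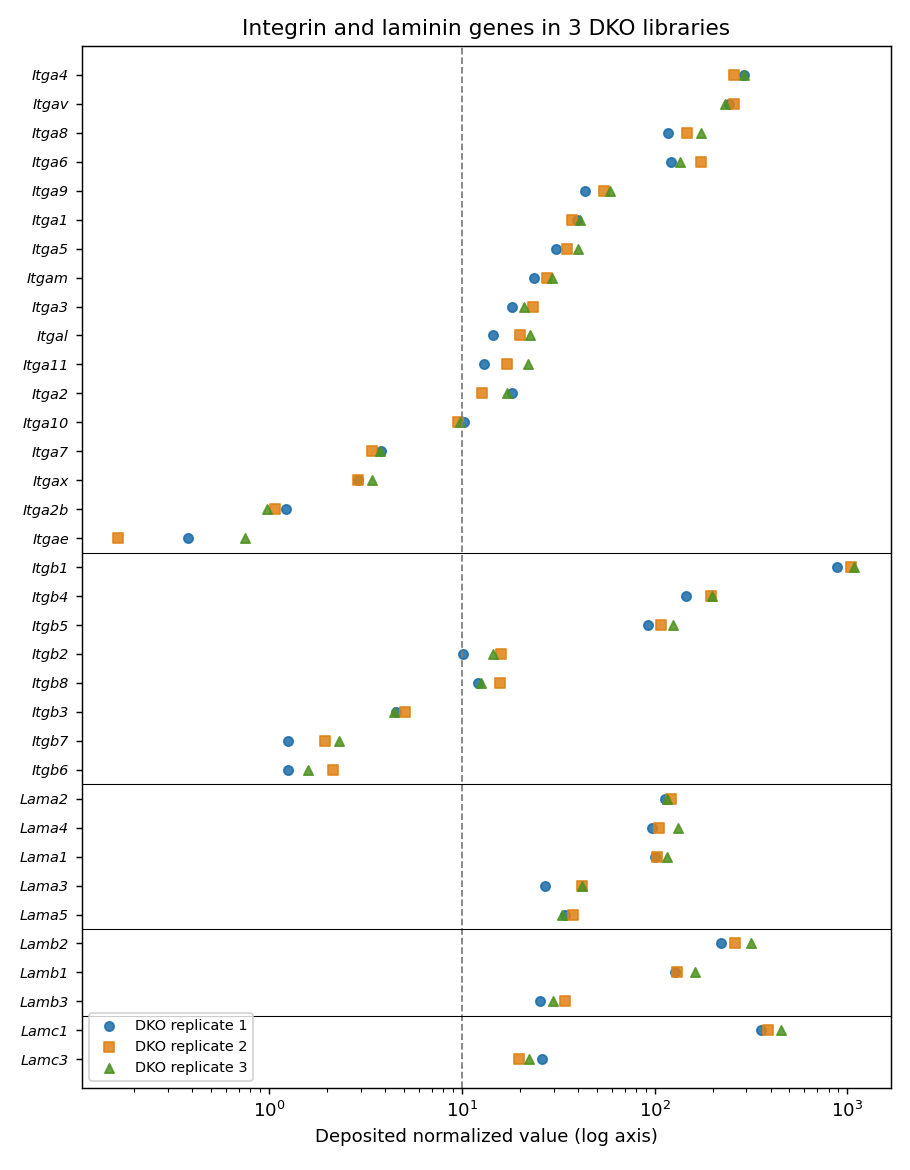
Deposited normalized values of 35 of the 36 genes on a log axis, with 1 symbol per DKO library and genes ordered by mean within integrin α, integrin β, laminin α, laminin β and laminin γ chains. The dashed line marks a value of 10, which the means of 27 of the genes drawn reach; Itgb1 lies farthest right, between 887 and 1082.

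Total values per library were 986401, 958773 and 966163, and the 75th percentile over all listed genes was the same in each. Taking the smallest value of a library as 1 read, which these data do not settle, counting error was between 0.464% and 5.36% for the members with a mean of at least 10. The coefficient of variation (SD over mean) of these members was between 4.01% and 27.6% and exceeded the gene's own counting error in 28 of 28. The share of all protein-coding genes for which it did so is not given, so this cannot be called particular to these members. Markers of the labelled tissue were present. All 10 incisor mesenchyme markers had a mean of at least 10, led by Igfbp5, Lum, Prrx1 and Pdgfra, and so had 10 of 12 dental epithelium markers, 10 of 10 endothelial, 7 of 8 mural and 12 of 12 macrophage markers. Of 10 odontoblast markers 9 passed, but only 3 of 8 Schwann cell, 2 of 8 platelet and 1 of 8 lymphocyte markers did. Odontoblast markers summed to 21072, 12223 and 26647 in replicates 1, 2 and 3. Of the 9 that passed, 6 were lowest in replicate 2, against 28.0% of protein-coding genes. Markers of several other cell types that use members of these families were thus measured in the same libraries.

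Itgb1, the β chain shared by 12 of the heterodimers considered, was the most abundant member. It lay at 887, 1051 and 1082 in replicates 1, 2 and 3 (1006.5 ± 104.3, SD, n = 3). Per kilobase of exon it was at 246.6 ± 25.6, above 99.2% of protein-coding genes with a mean of at least 10. It made up 79.6% ± 0.841 of the summed integrin β level per kilobase. Replicate 1 was the lowest of the 3.

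Itgb5 and Itgb4 followed at much lower levels. Itgb5, which joins αV to bind vitronectin, lay at 92.7, 107.6 and 124 (30.4 ± 4.43 per kilobase). Itgb4, the partner of α6 in the hemidesmosomes that hold epithelial cells to laminin, lay at 146, 195 and 199.8 (25.7 ± 4.28 per kilobase). The ranges of Itgb5 and Itgb4 per kilobase overlapped between libraries, although Itgb5 was the higher within each library. In deposited units Itgb4 was the higher in each library, so their order depends on the division by length and is not settled. Itgb1 exceeded Itgb5 by 3.02 ± 0.09 and Itgb4 by 3.27 ± 0.10 (log2 of value per kilobase, within libraries), in 3 of 3 libraries each.

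The remaining β chains were low. Itgb2, the β chain of leukocytes, lay at 10.1, 16.0 and 14.6 (4.45 ± 1.00 per kilobase), with replicate 1 lowest. Itgb8, which with αV releases TGF-β from its latent form, was at 1.22 ± 0.178 per kilobase and was highest in replicate 2. The RGD-binding β chains Itgb3 and Itgb6 had means of 4.68 and 1.66 deposited units, and the lymphocyte chain Itgb7 a mean of 1.84. Itgb1, Itgb5 and Itgb4 were thus the only β chains with a mean above 100 deposited units.

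The integrin α chains had 4 leading members, of 3 ligand classes. Itgav, the αV chain that pairs with Itgb1, Itgb3, Itgb5, Itgb6 and Itgb8, lay at 243, 259 and 232 (22.8 ± 1.28 per kilobase). Itga4, whose protein binds VCAM-1 and fibronectin, lay at 291, 258 and 293 (20.1 ± 1.41 per kilobase). Itga8, whose protein binds nephronectin, lay at 118, 147 and 174 (19.9 ± 3.77 per kilobase). Itgav and Itga4 varied little between libraries, with ranges of 0.16 and 0.18 on the log2 scale, whereas Itga8 ranged over 0.55 and was highest in replicate 3. Itga6, the main laminin-binding α chain here, lay at 122, 175 and 136 (16.0 ± 3.04 per kilobase) and was highest in replicate 2. Per kilobase, the range of Itga8 overlapped those of Itgav, Itga4 and Itga6, and the range of Itga6 overlapped that of Itga4. Without division by length Itga4 came first. With the length of the longest coding transcript Itga6 came second after Itgav, at 33.6 per kilobase against 28.7 for Itga4. All 1124 bases that the exons of Itga4 share with those of Cerkl, of 13978, could hold reads of either gene, since the strand setting is not given in the sources used here.

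Among laminin-binding α chains, Itga6 stood above the others. Itga3, which binds laminins of epithelial basement membranes, lay at 18.1, 23.5 and 20.99 (3.66 ± 0.475 per kilobase). Itga7, the laminin receptor of muscle, had a mean of 3.67 deposited units. Itga6 exceeded Itga3 by 2.12 ± 0.10 (log2 per kilobase) in 3 of 3 libraries. Itga6 and Itga3 were both lowest in replicate 1 and highest in replicate 2.

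Collagen-binding α chains were low beside the abundant collagens. Itga1 lay at 39.8, 37.5 and 41.1 (2.12 ± 0.101 per kilobase). Itga11, known from fibroblasts and periodontal ligament, lay at 13.0, 17.3 and 22.1 (3.40 ± 0.884 per kilobase). Itga2 lay at 18.2, 12.7 and 17.1 (2.25 ± 0.408 per kilobase). Itga11 had the widest fold between libraries among the 28, 1.70, with replicate 3 highest and replicate 1 lowest. Itga2 was lowest in replicate 2. Itga11 exceeded Itga1 by 0.65 ± 0.37 (log2 per kilobase) in 3 of 3 libraries. This order turned round to -1.21 without division by length and to -0.07 with the length of the longest coding transcript, so it is not settled. The class, Itga10 included, summed to 9.67 ± 0.987 per kilobase, against 20.1 ± 3.47 for the laminin-binding and 50.1 ± 4.33 for the RGD-binding α chains.

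Of the other α chains, Itga5, the classical fibronectin receptor chain, lay at 30.9, 35.2 and 40.3 (7.19 ± 0.946 per kilobase). Itgav exceeded it by 1.67 ± 0.24 (log2 per kilobase) in 3 of 3 libraries. Itga9, which binds tenascin-C and VCAM-1, lay at 43.4, 54.9 and 59.1 (6.82 ± 1.05 per kilobase). Both were lowest in replicate 1 and highest in replicate 3, and their ranges per kilobase overlapped. The platelet chain Itga2b had a mean of 1.09 deposited units and the intraepithelial lymphocyte chain Itgae 0.430.

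Leukocyte α chains were present at low levels. Itgam, the αM chain of macrophages and neutrophils, lay at 23.8, 27.5 and 29.2 (5.34 ± 0.555 per kilobase). Itgal, the αL chain whose protein binds ICAM-1, lay at 14.5, 20.1 and 22.6 (2.90 ± 0.634 per kilobase). Itgax had a mean of 3.07 deposited units. Itgam, Itgal and their partner Itgb2 were all lowest in replicate 1. The summed level of 12 macrophage markers was also lowest there, at 1064, 1405 and 1480, with 10 of 12 lowest in replicate 1, against 38.4% of protein-coding genes, while of the 8 lymphocyte markers 4 were measured and only Cd4 had a mean of at least 10. The part of macrophage content in these values was not tested.

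**Figure D2:**
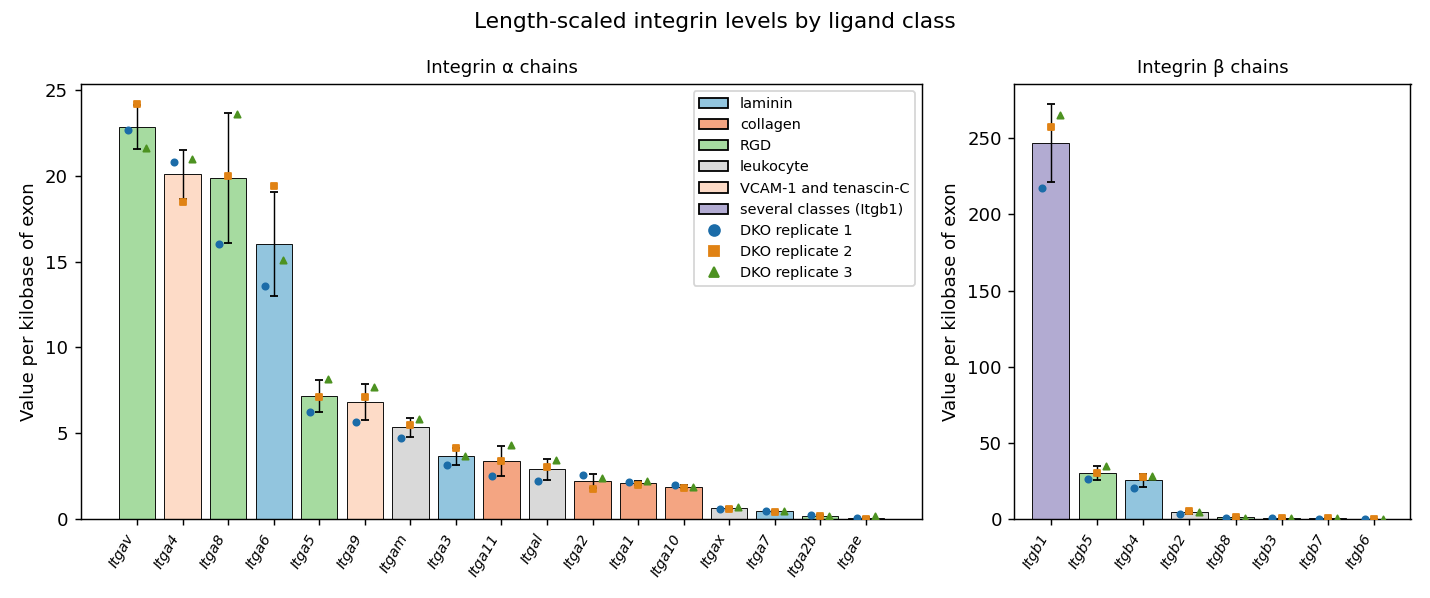
Value per kilobase of exon for 17 integrin α chains (left) and 8 integrin β chains (right), with bars for the mean, error bars for the SD over 3 DKO libraries and symbols for the single libraries; fill gives the ligand class. Itgb1 stands at 246.6, and the 4 leading α chains lie between 16.0 and 22.8.

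Laminin transcripts were led by Lamc1 and Lamb2. Lamc1, the γ chain of most laminins, lay at 355, 388 and 456 (48.3 ± 6.19 per kilobase). Lamb2 lay at 222, 263 and 316 (43.9 ± 7.75 per kilobase) and made up 70.1% ± 1.41 of the β level. Lamb1 lay at 128, 131 and 162 (14.1 ± 1.88 per kilobase). All 3 were highest in replicate 3 and lowest in replicate 1. Lamb2 exceeded Lamb1 by 1.63 ± 0.11 (log2 per kilobase), a 3.09-fold difference present in 3 of 3 libraries. The difference was 0.92 without division by length and 0.96 with the length of the longest coding transcript.

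The α chains, which carry the integrin-binding domains of laminins, were more evenly distributed. Lama1, a chain of early epithelial basement membranes, lay at 100.4, 103 and 116 (10.97 ± 0.846 per kilobase). Lama4, a chain of vessel and mesenchymal basement membranes, lay at 96.9, 106 and 132 (9.25 ± 1.51 per kilobase). Lama2, the chain lost in merosin-deficient muscular dystrophy, lay at 113, 122 and 116 (7.17 ± 0.287 per kilobase). These 3 made up 32.4%, 27.2% and 21.2% of the α level per kilobase. The ranges of Lama1 and Lama4 overlapped, although Lama1 was the higher within each library. With the length of the longest coding transcript Lama4 came first, at 18.5 per kilobase, before Lama2 at 12.2 and Lama1 at 11.2. In deposited units Lama2 came first, at a mean of 117 against 112 for Lama4 and 106 for Lama1, so the order is not settled. Lama5, the main α chain of many mature epithelial and endothelial basement membranes, lay at 34.3, 37.8 and 32.9 (3.08 ± 0.221 per kilobase). Lama5 lay below Lama4 by a log2 difference of -1.58 ± 0.29 per kilobase in 3 of 3 libraries.

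Lama3 and Lamb3, chains of laminins in epithelial basement membranes, were measured at similar low levels. Lama3 lay at 27.0, 42.09 and 42.07 (3.45 ± 0.81 per kilobase). Lamb3 lay at 25.4, 34.4 and 29.7 (4.51 ± 0.68 per kilobase). Both were highest in replicate 2, although Lama3 was nearly as high in replicate 3. Lamc3, a γ chain of few tissues, lay at 25.98, 19.8 and 22.3 (3.73 ± 0.51 per kilobase).

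**Figure D3:**
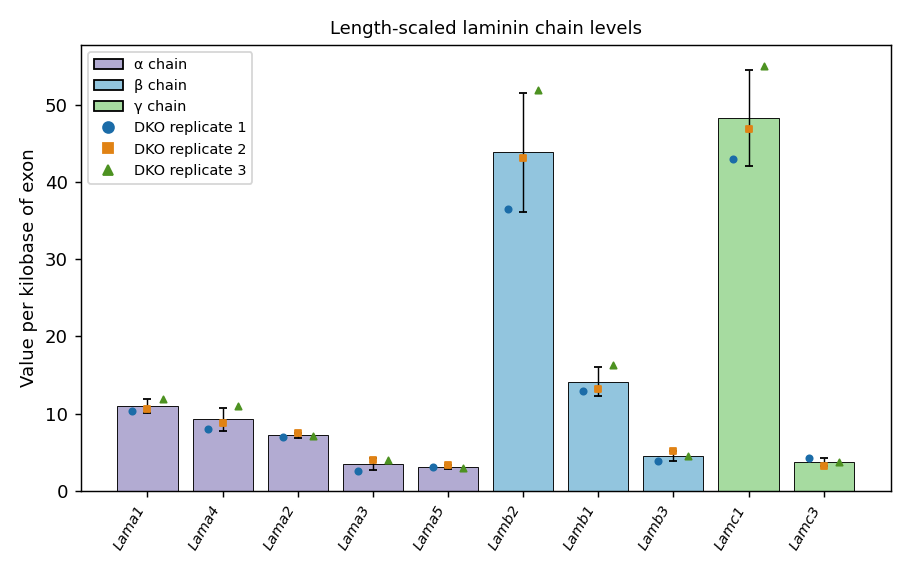
Value per kilobase of exon for 10 laminin chain genes, with bars for the mean, error bars for the SD over 3 DKO libraries and symbols for the single libraries. Lamc1 at 48.3 and Lamb2 at 43.9 stand above all α chains, which lie between 3.08 and 10.97.

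The 7 differences between genes given above, from Itgb1 over Itgb5 to Lama5 below Lama4, were each tested within libraries by flipping signs (an exact permutation test, two-sided). Each p was 0.25, before and after Benjamini-Hochberg adjustment over the 8 differences computed, which is the smallest value that n = 3 allows, so none can pass 0.05.

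When chains were matched into complexes, the α chain was the lower one in most complexes considered, many of which share Itgb1 or Lamc1. Of 24 known heterodimers, 23 had both chains measured and 15 had both at a mean of at least 10, among them 10 of 12 with Itgb1. In all 12 with Itgb1 the α chain was the lower per kilobase, under each of the 3 length settings (exon union, longest coding transcript and no division by length). The same Itgb1 level, 246.6 per kilobase, entered all 12, and the highest α chain was at 22.8, so these are not separate results. Itgb1 alone amounted to 2.13 ± 0.0612 times the sum of all 17 α chains, but to 0.946 ± 0.0472 times without division by length. Over all 23 the α chain was the lower in 18, 12 of them those with Itgb1. The β chain was the lower in αVβ3, αVβ6, αVβ8, α4β7 and αMβ2. With the longest coding transcript the α chain was the lower in 16, since αVβ5 and α6β4 turned round, and without division by length it was also 16, since αVβ5 and αLβ2 did. Itgb4 amounted to 1.62 ± 0.238 times Itga6 per kilobase of exon but to 0.873 ± 0.128 times with the longest coding transcript, so the order of these partners is not settled. The α chain was the lowest of the 3 in each of 10 laminin trimers considered, under each of the 3 length settings. All 10 held Lamc1 with Lamb1 or Lamb2, so they are not separate results. No trimer with Lamc3 was considered, and Lamc3, at 3.73 ± 0.51 per kilobase, was below Lama1, Lama4 and Lama2. The laminin β chains summed to 62.5 ± 9.79 and the α chains to 33.9 ± 2.95 per kilobase. Amounts of transcript do not give amounts of assembled receptor or trimer.

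The ligands of these receptors were measured in the same libraries, from lists set for this description. Of the RGD and related ligands, 15 of 16 measured had a mean of at least 10. Of these 15, 10 were lowest in replicate 1, against 38.4% of protein-coding genes, and 5 in replicate 2, against 28.0%. The dentin matrix protein gene Dspp had the highest mean of the list and lay at 4959, 1072 and 3489, lowest in replicate 2. Fibronectin (Fn1), bound by α5β1 and αV integrins, lay at 1223, 1538 and 1749.6, and tenascin-C (Tnc), bound by α8, α9 and αV integrins, at 1610, 1715 and 1774. Nephronectin (Npnt), the ligand of α8β1, lay at 91.8, 133 and 126. Fn1, Tnc and Npnt were lowest in replicate 1, as were Itga5, Itga8 and Itga9, whereas Dspp was not. Itgav, which also serves Fn1 and Tnc, was lowest in replicate 3, and Itga4 in replicate 2. Replicate 1 was the lowest library for 21 of the 28 members with a mean of at least 10. Osteopontin (Spp1, 48.8, 87.5 and 59.7) and thrombospondin 1 (Thbs1, 318, 323 and 561) each had 1 high library, replicate 2 for Spp1 and replicate 3 for Thbs1. Vcam1, the cell surface ligand of α4β1, lay at 116, 112 and 111. Of 9 collagen genes, 8 had a mean of at least 10 and all 8 were highest in replicate 3, against 34.9% of protein-coding genes. Of the 8, 4 were lowest in replicate 1 and 4 in replicate 2. Col1a1, with the highest mean, lay at 9950, 4719 and 13715, lowest in replicate 2. Col3a1 lay at 2100, 3325 and 3682 and Col5a2 at 580, 727 and 1010.1, both lowest in replicate 1. Of the collagen-binding chains with a mean of at least 10, Itga11 and Itga1 were highest in replicate 3 and Itga2 in replicate 1, while Itga11 was lowest in replicate 1 and Itga1 and Itga2 in replicate 2.

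Basement membrane partners of laminins were abundant too. Of 17 genes, 14 had a mean of at least 10, and 10 of the 14 were highest in replicate 3, against 34.9% of protein-coding genes. The collagen IV genes Col4a1 (379.8, 399.8 and 566) and Col4a2 (236, 248 and 360.2) and perlecan (Hspg2, 403.5, 378 and 520.1) were highest there, while Agrn (358, 361 and 388) and Nid2 (307, 284 and 289.8) varied less. Endothelial markers, which summed to 441, 435 and 576, were highest in replicate 3 for 9 of 10 genes, against 34.9% of protein-coding genes. Lama1, Lama4, Lamb1, Lamb2 and Lamc1 were also highest in replicate 3. Lama2, Lama3, Lama5 and Lamb3 were highest in replicate 2 and Lamc3 in replicate 1, and Lama5 was lowest in replicate 3. The part of vessel content in these values was not tested. Of 23 proteins that bind integrin tails or build focal adhesions, 21 had a mean of at least 10 and 16 of these were highest in replicate 3, against 34.9% of protein-coding genes. Of the 21, 11 were lowest in replicate 2 and 10 in replicate 1. Filamin A (Flna) lay at 628, 744 and 887 and talin 1 (Tln1), which activates integrins, at 291, 321 and 371, both lowest in replicate 1. Parva, a parvin of the complex with integrin-linked kinase, lay at 239, 227 and 252, lowest in replicate 2. The leukocyte kindlin Fermt3 lay at 9.96, 13.7 and 14.9, lowest in replicate 1 as Itgb2 was. The hemidesmosome linker genes Dst (332, 343 and 351) and Plec (179.6, 185 and 210.1) had log2 ranges of 0.083 and 0.225, while Krt5 and Krt14, of the same list, had ranges of 0.64 and 0.63.

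Replicate 1 was the lowest library for most members. Of the 28, 21 (75.0%) were lowest in replicate 1, against 38.4% of protein-coding genes, while 4 were lowest in replicate 2 (28.0% of protein-coding genes) and 3 in replicate 3 (33.6%). Of the 28, 16 (57.1%) were highest in replicate 3, against 34.9% of protein-coding genes, 10 (35.7%) in replicate 2, against 34.0%, and 2 (7.14%) in replicate 1, against 31.0%. The 2 highest in replicate 1 were Itga2 and Lamc3. After rescaling to equal totals 21 of these 21 were again lowest in replicate 1, as they had to be, since its total was the largest. After scaling by the median of ratios 21 of the 21 were too. The size factors, 0.995, 1.007 and 1.002 in replicates 1, 2 and 3, differed so little that this could change few genes. The ribosomal RNA gene CT010467.1 took 7.27%, 4.98% and 4.66% of the total value in replicates 1, 2 and 3 and the mitochondrial genes took 5.11%, 4.14% and 4.16%, both highest in replicate 1, and the part of these shares was not tested. Mesenchyme markers summed to 4489, 5951 and 6059, and 4 of the 10 genes were lowest and 4 highest in replicate 1. Without Igfbp5 the other 9 summed to 2733, 2709 and 2810. The median log2 range over the 3 libraries was 0.40 among the 28, against 0.19 among protein-coding genes.

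A log2 range above 0.5 was found for 8 of the 28 members (28.6%), against 7.64% of protein-coding genes. Among them were Itga11, Itgal, Itga8, Itga6, Itgb2, Lama3 and Lamb2, with folds between highest and lowest library from 1.42 for Lamb2 to 1.70 for Itga11. Of the 8, the 7 named were lowest in replicate 1, 0 were lowest in replicate 2 and 1 in replicate 3, against 41.0%, 32.5% and 26.5% of the 775 protein-coding genes with such a range. Without replicate 1 the count was 1, and without replicates 2 and 3 it was 5 and 4. A range over 2 libraries cannot exceed that over all 3, so the 8 could only be lost. The 7 lowest in replicate 1 had to have smaller ranges without it. The share of protein-coding genes without each library is not given. Itga6, Lama3 and Lamb3 were highest in replicate 2 and Itgb4 in replicate 3, although Itgb4 was nearly as high in replicate 2 (195 against 199.8). Dental epithelium markers summed to 1082, 1645 and 1286. Of the 10 with a mean of at least 10, 9 were highest in replicate 2, against 34.0% of protein-coding genes. Krt5 (180.0, 253 and 162) and Krt14 (123, 191 and 154) were among them. The part of epithelial content in the values of these 4 genes was not tested.

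**Figure D4:**
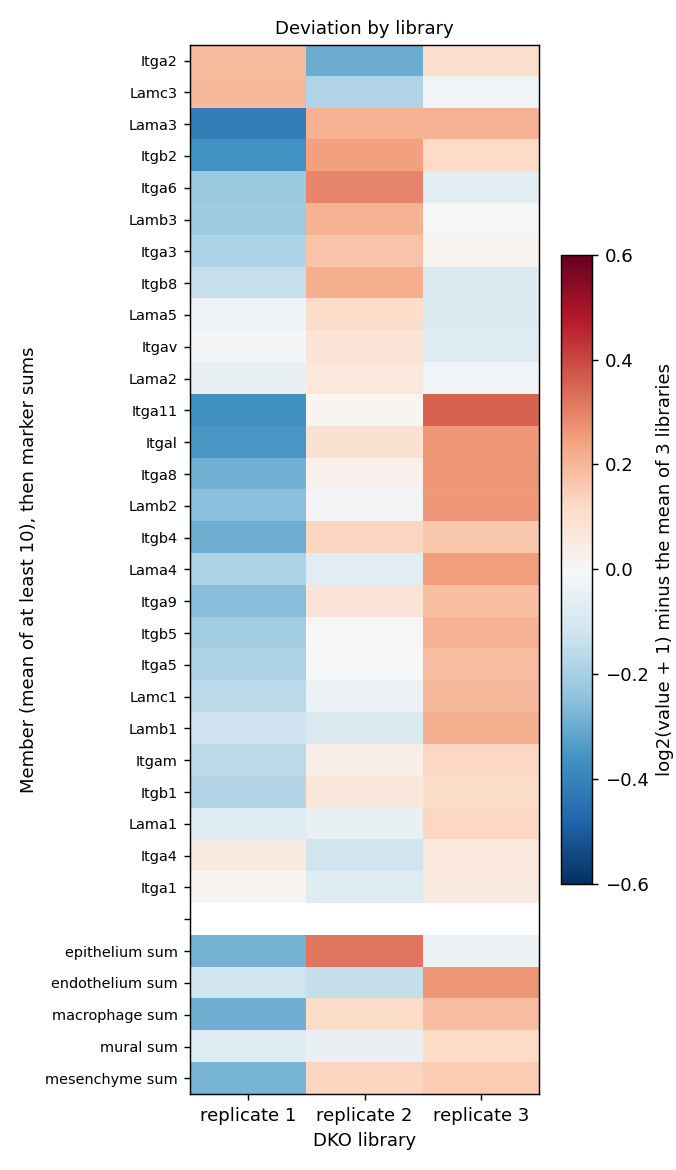
Deviation of log2(value + 1) from the mean of 3 DKO libraries, in columns for replicates 1 to 3, for 27 of the 28 genes with a mean of at least 10 ordered by their highest library and, below the gap, for summed markers of 5 cell types. The column of replicate 1 is lowest for 21 of the 27 genes drawn, and epithelial markers are highest in replicate 2.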

How the data were processed

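RNA was sequenced from 3 DKO libraries of proximal incisor mesenchyme. Per the submitters' processing notes, reads were aligned with TopHat2 2.0.8 to mm10. For the counter, annotation, strand setting and filters: not given in the sources used here. The deposited signal is a normalized count per gene: by the values, the authors scaled each library to a common 75th percentile and did not divide by gene length. Each column was assigned by the library number that its name shares with the labels. Exon lengths were unions of exons in GENCODE M21 (mm10). All 36 members matched it by symbol, chromosome and start, as did 14989 of 15252 protein-coding genes.

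Logarithms were log2(value + 1), and differences between genes were log2 ratios of values per kilobase. Members, lists, the floor of 10 and the range of 0.5 were chosen with earlier results of these data known. Of the 36, 1 member and the results that need it are not reported here, although it is in the counts over all members. The others are accounted for, with library values for those at a mean of at least 10. From other lists the 4 genes with the highest mean, and those with a log2 range above 0.5, could be named. From these, some are given only in counts. The range call and the sign-flip test were tested on simulated data. The simulated shifts were larger than the folds of the members called here and the simulated noise was small, so shifts of the size found here were not covered. Exons of 4 members, Itga1, Itga4, Itga8 and Itga10, overlap those of another listed gene, over 3.68%, 8.04%, 5.05% and 33.5% of their bases. Promoter windows are from RefSeq (GRCm38.p6), which had entries for 23 members. Python 3.11.15, pandas 2.3.3 and numpy 2.4.6 were used. Counting errors assume that the smallest value is 1 read and cover counting error only.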

Additional observations from a re-analysis of the deposited data

How the results depend on the processing

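No paired analysis was possible because the labels give 1 group. Of the 7 differences between genes given here, 6 kept their direction under every alternative run, which were no division by length, the longest coding transcript (added after seeing the data) and leaving out each library. The exception was Itga11 minus Itga1, 0.65 per kilobase, which was -1.21 without division by length and -0.067 with the longest coding transcript. The log2 ratio of Itgb4 to Itga6, 0.68, was -0.21 with the longest coding transcript, and that of Itgb1 to the summed α chains, 1.09, was -0.082 without division by length (lengths added after seeing the data). The 28 members with a mean of at least 10 became 13 at a mean of at least 100, a limit added after seeing the data, and 28 to 29 with a library left out. The 8 members with a log2 range above 0.5 became 3 at a mean of at least 100, 2 when 10 was added before the logarithm, and 1 to 5 when each library was omitted in turn, the lowest without replicate 1. With limits of 0.4 and 0.6, added after seeing the data, they were 14 and 5. Scaling by the median of ratios, also added, gave 7, of which 6 were among the 8, with Itga6 and Lamb2 lost and Itga2 gained. A higher limit or pseudocount lowers the count by construction, and leaving out a library cannot widen the range of a gene. Shares of protein-coding genes are given for the main settings only, so the counts under other settings do not compare the members with other genes. The other causes were not tested. Levels of genes with means near 1, such as Itgae and Itga2b, are limited by depth.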
